A study of Mus musculus with 2 samples.

Results

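Vascular endothelial growth factors and angiopoietins are secreted ligands that steer the growth, stability and permeability of vessels, and 10 genes of the 2 systems were followed across the nuclei of the mouse ascending aorta and arch. They are the ligands Vegfa, Vegfc, Pgf, Angpt1 and Angpt2 and the receptors Kdr, Flt1, Flt4, Tek and Tie1, chosen by gene symbol as 10 of the 54754 genes listed in the count matrices, and all 10 were detected in both libraries. The data were single-nucleus RNA-seq counts from 1 library labelled Female and 1 labelled Male. Both pools came from Wnt1-Cre/Rosa26-mTmG mice, so both carried the same Cre and reporter alleles, and no other treatment, age or strain is given. Wnt1-Cre is active in the neural crest, which gives rise to part of the smooth muscle of the arch. The reporter switches from membrane tdTomato to membrane GFP in cells with a history of Cre. Aortas were pooled by sex before nuclei were taken, and each pool was split into technical replicates that the barcodes do not show, so a sex stands on 1 library and no spread between mice can be given.

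In this pathway Vegfa and Pgf bind Flt1, Vegfa signals mainly through Kdr, and Vegfc signals through Flt4 and, once processed, Kdr. Flt1 binds Vegfa tightly with weak kinase activity and its soluble form acts as a trap. Angpt1 activates the receptor kinase Tek, Angpt2 competes with it in many settings, and Tie1 is a related receptor without a firmly established ligand of its own that modulates Tek. In a large artery the inner endothelium is the classical site of these receptors, and the outer coat, with its fibroblasts, fat and small vessels, is a classical source of ligands.

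The genes are spread over 7 mouse chromosomes in the GENCODE M21 annotation of GRCm38. Vegfa lies at chr17:46016993-46032369, Vegfc at chr8:54077606-54187096, Pgf at chr12:85166635-85177790, Angpt1 at chr15:42424723-42676977 and Angpt2 at chr8:18690263-18741562. Among the receptors, Kdr lies at chr5:75932827-75978458, Flt1 at chr5:147561604-147726011, Flt4 at chr11:49609263-49652739, Tek at chr4:94739289-94874976 and Tie1 at chr4:118471191-118490061. Vegfc, Flt4 and Tek are on the plus strand and the others on the minus strand. Angpt2 sits wholly inside Mcph1 on the opposite strand, and part of Angpt1 overlaps the antisense model Gm17473. The sources used here do not give whether counting used strand.

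The 250 bases before the starts of the receptors Tek, Flt1 and Kdr are shown, from RefSeq on GRCm38.p6, because the results turn on the different classes of nuclei that held them. The windows are chr4:94739039-94739288 on the plus strand for Tek, chr5:147726012-147726261 on the minus strand for Flt1 and chr5:75978456-75978705 on the minus strand for Kdr. Capitals mark the letters GGAA or, for the other strand, TTCC, the core that ETS factors of endothelial cells recognise.
Tek: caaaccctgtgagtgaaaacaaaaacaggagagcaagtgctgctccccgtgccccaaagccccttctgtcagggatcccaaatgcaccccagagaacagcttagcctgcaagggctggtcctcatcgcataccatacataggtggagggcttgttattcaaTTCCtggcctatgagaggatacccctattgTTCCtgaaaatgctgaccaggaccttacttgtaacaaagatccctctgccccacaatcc
Flt1: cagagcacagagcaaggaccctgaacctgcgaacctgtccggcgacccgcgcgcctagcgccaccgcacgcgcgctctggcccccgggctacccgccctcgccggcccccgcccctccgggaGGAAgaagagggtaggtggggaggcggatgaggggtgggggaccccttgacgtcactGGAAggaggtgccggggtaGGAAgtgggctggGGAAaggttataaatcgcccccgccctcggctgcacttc
Kdr: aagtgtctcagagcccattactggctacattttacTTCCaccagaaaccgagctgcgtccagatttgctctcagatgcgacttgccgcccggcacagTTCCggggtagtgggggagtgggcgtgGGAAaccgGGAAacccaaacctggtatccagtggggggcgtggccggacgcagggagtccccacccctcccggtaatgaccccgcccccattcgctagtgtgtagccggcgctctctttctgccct
The Tek window holds the core 2 times and the Flt1 and Kdr windows 4 times each. Of 32851 promoter windows of the same length, 93.4% hold at least 1 such core, with a median of 3. As many cores as in the Tek window are found in 76.8% of all windows, and as many as in the Flt1 and Kdr windows in 33.4%.

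The Female library held 18863 nuclei with at least 300 genes, at a median of 3546 UMIs (unique molecule counts), and the Male library 20653 at a median of 3104. Nuclei were grouped by whichever of 5 sets of 3 marker genes had the largest UMI sum, with a minimum of 3 UMIs. This gave 8133 Female and 7661 Male muscle nuclei, 5152 and 6746 endothelial, 2185 and 2492 fibroblast, 1476 and 1332 fat, and 481 and 696 macrophage nuclei. Subgroups within a class went by the largest UMI sum of a marker set, with a minimum of 2 UMIs, and are named by genes of the set. UMIs of any gene in a set could suffice, so a nucleus need not hold all of them. Too few such UMIs for a subgroup were found in 1924 Female and 2383 Male endothelial nuclei, 2343 and 2446 muscle nuclei, and 215 and 252 fibroblasts. For each class, the level of a marker gene not used for grouping is given in that class. Myocd was at 1084 and 1458 CPM (UMIs of a gene scaled to equal totals for each class and library) in Female and Male muscle, Vwf at 787 and 893 in endothelium, Pi16 at 2542 and 2935 in fibroblasts, Pparg at 4244 and 3769 in fat, and Csf1r at 753 and 777 in macrophages. Each class also carried some RNA of the others. Vwf in muscle was at 3.32% of its endothelial CPM (Female) and 4.98% (Male), and in fibroblasts at 1.88% and 2.60%. The libraries shared 4287 barcode sequences.

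Each class was set against the mean of the other 4 over 10 library sums, with edgeR and adjustment over 19489 genes. Endothelium had 7 of the 10 genes higher and 0 lower, where 24.4% of all genes were higher and 21.5% lower. Fibroblasts had 5 higher and 1 lower (all genes: 24.1% higher, 19.7% lower), and fat 2 higher and 8 lower (all genes: 32.7% higher, 33.3% lower). Muscle had 2 higher and 4 lower (all genes: 24.4% higher, 23% lower), and macrophages 0 higher and 6 lower (all genes: 19.3% higher, 22.4% lower). The median log2 difference of the 10 genes was 1.97 in endothelium, 1.07 in fibroblasts, -0.69 in muscle, -1.58 in macrophages and -2.53 in fat, beside medians of all genes between -0.22 and -0.02. Sums of 2 libraries from 2 pools are the only replicates, so the adjusted p-values measure the spread between these sums. Scaling by library totals alone moved the share of higher calls among all muscle calls from 51.4% to 40.9%.

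**Figure D1:**
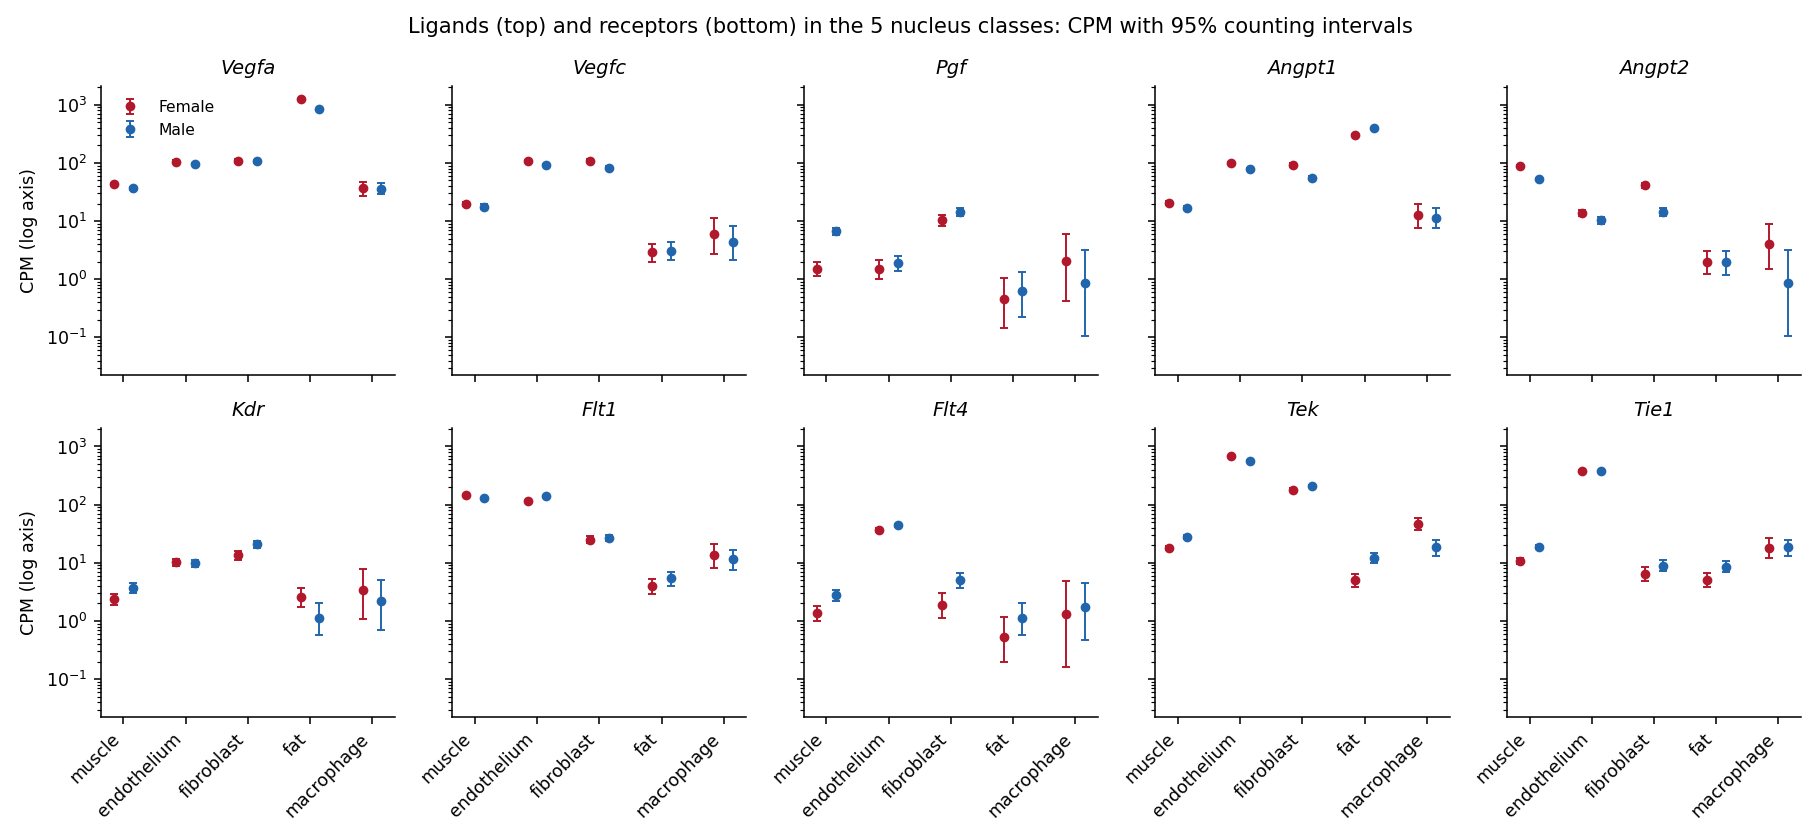
CPM of the 5 ligands (top) and 5 receptors (bottom) in the 5 nucleus classes, on a log axis, with 1 point per library (Female red, Male blue) and bars for 95% exact Poisson intervals. Vegfa and Angpt1 stand highest in fat, Tie1 and Flt4 in endothelium, and Tek stands second in fibroblasts in both libraries.

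Vegfa, the main driver of vessel sprouting and permeability, was most abundant in fat nuclei. It stood at 1233 CPM in Female and 838 CPM in Male fat, against 108 and 108 in fibroblasts, 105 and 94.1 in endothelium, 43.3 and 36.5 in muscle and 36.3 and 36.0 in macrophages. Fat lay 9.60-fold above fibroblasts, the next class, by the mean of both libraries. The intervals of fibroblasts and endothelium overlapped, as did those of muscle and macrophages. Fat nuclei, 7.82% and 6.45% of the nuclei, held 73.3% of all Vegfa UMIs (Female) and 62.9% (Male). A Vegfa UMI was found in 98.8% and 95.9% of fat nuclei (median depth 6877 and 6976 UMIs) and in 6.03% and 3.30% of macrophages (2392 and 2682 UMIs). With nuclei thinned to 1000 UMIs, and those with fewer left out, the shares were 69.5% and 56.3% in fat and 1.82% and 1.77% in macrophages. This left out 11 Female and 15 Male fat nuclei, and 42 and 74 macrophages. The fat contrast was 3.99 on the log2 scale (SE 0.10, edgeR adjusted p = 6.8e-10), and the muscle contrast was -1.71 (SE 0.13, adjusted p = 2.9e-06).

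Fat nuclei with more UMIs of the brown markers Ucp1, Cidea and Ppara than of the white markers Cyp2e1, Retn and Cfd held Vegfa at 1297 CPM in the Female and 946 CPM in the Male library. The white subgroup held 1113 and 720. In both libraries the brown subgroup was higher, but the Female white subgroup was above the Male brown one, so the subgroups overlapped across libraries. Angpt1 had no constant order, at 293 (Female) and 417 (Male) in brown and 324 and 364 in white nuclei.

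Vegfc, the growth factor of lymphatic vessels, was shared by endothelium and fibroblasts. Endothelium held 109 CPM (Female) and 90.9 CPM (Male), and fibroblasts 109 and 83.0, so the classes overlapped. Muscle held 19.6 and 17.7, macrophages 6.05 and 4.39, and fat 2.88 and 3.11. Its log2 contrast was 2.98 in endothelium (SE 0.09, adjusted p = 9.8e-09) and 2.84 in fibroblasts (SE 0.09, adjusted p = 1.0e-08). Endothelial nuclei with no UMI of the fibroblast markers held 112 and 92.5 CPM, close to all endothelial nuclei. Fibroblast nuclei with no UMI of the endothelial markers held 114 and 81.9.

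Pgf, the placental growth factor, was counted with 208 UMIs (Female) and 414 UMIs (Male). Of the 5 classes, fibroblasts were highest, at 10.3 CPM in the Female and 14.4 CPM in the Male library (intervals 8.26 to 12.6 and 12.2 to 17.0). The log2 contrast was 3.10 (SE 0.37, edgeR adjusted p = 7.3e-05). Muscle held 1.49 CPM (Female) and 6.68 CPM (Male), and endothelium 1.5 and 1.89. Fat rested on 5 and 6 UMIs and macrophages on 3 and 2, so their order cannot be read at this depth. Within fibroblasts, Pex5l-Lsamp nuclei held 27.2 and 29.1 CPM, above 5.46 and 15.3 in Pi16-Dact2 nuclei and 5.38 and 10.6 in C7-Plcxd3 nuclei.

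Angpt1, the activating ligand of Tek, was highest in fat, at 303 CPM in the Female and 392 CPM in the Male library. Endothelium followed at 101 and 78.0 and fibroblasts at 91.2 and 55.1, overlapping each other, then muscle at 20.6 and 16.9 and macrophages at 12.8 and 11.4. The fat contrast was 3.31 on the log2 scale (SE 0.14, adjusted p = 2.1e-08) and the endothelial contrast 0.88 (SE 0.16, adjusted p = 0.0011). Endothelial nuclei with no UMI of the fat markers Adipoq, Plin1 and Plin4 held 99.5 and 73.0 CPM of Angpt1 and 90.0 and 79.6 CPM of Vegfa. The fat markers stood at 107 and 189 CPM in endothelial nuclei with an Angpt1 UMI and 35.9 and 39.3 in those without. For nuclei with and without a Vegfa UMI they stood at 118 and 174 against 27.0 and 32.1. Capillary nuclei (Gpihbp1, Rgcc, Cd300lg) were the highest endothelial subgroup for both genes by the mean of both libraries. The 26 Female and 33 Male with a fat-marker UMI held Vegfa at 699 and 678 CPM. The 23 and 20 without held it at 68.6 and 16.3 CPM, on 4 and 1 UMIs. Angpt1 had 30 and 130 UMIs in those with a fat-marker UMI and 0 and 0 in those without, which allows up to 63.3 and 60.3 CPM. The part of fat RNA in the endothelial values was not tested. In fibroblasts the Angpt1 contrast was 0.44 with an adjusted p of 0.053. Among the larger fibroblast subgroups the Pex5l-Lsamp nuclei held 153 and 86.1 CPM, the C7-Plcxd3 nuclei 94.6 and 67.5 and the Pi16-Dact2 nuclei 56.2 and 33.7. Their order was the same in each library. The further Tfap2b-Chrm2 subgroup had 25 and 6 nuclei. It held Angpt1 at 223 CPM (interval 136 to 345) in the Female library and 0 UMIs in the Male. Angpt2 there was at 290 CPM (190 to 425) on 26 UMIs and 50.1 CPM on 1 UMI.

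Angpt2, the context-dependent antagonist of Angpt1, was highest in muscle. Muscle held 87.8 CPM in the Female and 52.9 CPM in the Male library, fibroblasts 41.0 and 14.3, endothelium 13.8 and 10.3, macrophages 4.04 and 0.88, and fat 1.98 and 1.97. Muscle held 80.8% and 75.5% of all Angpt2 UMIs. The muscle contrast was 3.64 (SE 0.19, adjusted p = 1.3e-07) and the fibroblast contrast 1.69 (SE 0.23, adjusted p = 0.0002), whereas the endothelial contrast was 0.40 with an adjusted p of 0.22. Mcph1, in which Angpt2 lies, had another order, at 43.6 and 46.2 CPM in muscle, 55.0 and 55.6 in endothelium, 43.1 and 45.6 in fibroblasts and 103 and 121 in fat. Its part in the Angpt2 counts was not tested. Lrrtm3-Adamtsl1 muscle nuclei held 105 and 64.2 CPM of Angpt2, Pdzrn4-Sphkap nuclei 96.2 and 71.3, and Ptprz1-Actn2 nuclei 79.4 and 40.9. The last subgroup was lowest in each library.

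Kdr, the main signalling receptor for Vegfa, was scarce in the 5 classes and concentrated in nuclei of another kind. It stood at 10.1 CPM in the Female and 9.81 CPM in the Male endothelium, 13.5 and 20.9 in fibroblasts, 2.35 and 3.75 in muscle, 3.36 and 2.20 in macrophages and 2.61 and 1.14 in fat. Nuclei with at least 2 UMIs of the mesothelial markers Upk3b, Msln and Wt1, a covering layer rather than a vessel lining, numbered 348 and 637, or 1.84% and 3.08% of nuclei. They held 60.3% and 65.8% of all Kdr UMIs, at 211 CPM (interval 190 to 234) and 166 CPM (153 to 181). These nuclei came from several classes and from nuclei in none of the 5, and the grouping by mesothelial markers was chosen after values had been seen. Without them, fibroblasts held Kdr at 1.42 and 2.64 CPM.

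Outside the mesothelial-marker nuclei, the CPM of Kdr was higher in 2 small endothelial subgroups than in the other endothelium, though they held 3.39% and 10.2% of its UMIs in the Female and 5.96% and 1.95% in the Male library. Lymphatic nuclei (Prox1, Mmrn1, Reln), 34 and 68 in number, held 205 and 203 CPM, and capillary nuclei (Gpihbp1, Rgcc, Cd300lg), 49 and 52, held 259 and 39.1. The remaining 5046 and 6543 endothelial nuclei held 4.76 CPM (interval 3.81 to 5.88) and 4.74 CPM (3.90 to 5.72), with 13.9% and 12.5% of the Kdr UMIs, and all other nuclei held 12.3% and 13.8%. Of all capillary nuclei, including 1 Male nucleus with mesothelial markers, 26 of 49 Female and 33 of 53 Male had a UMI of a fat marker. The 23 and 20 without such a UMI held Kdr at 669 and 278 CPM, on 39 and 17 UMIs, while the Male nuclei with one held 0 Kdr UMIs, which allows up to 9.24 CPM at 95%. The fibroblast contrast of Kdr was 2.24 (SE 0.26, adjusted p = 6.4e-05), and it was 0.07 (SE 0.55, adjusted p = 0.94) with mesothelial-marker nuclei left out, an alternative chosen after seeing the data. The endothelial contrast went from 1.33 (SE 0.26, adjusted p = 0.0021) to 2.73 (adjusted p = 0.00017).

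**Figure D2:**
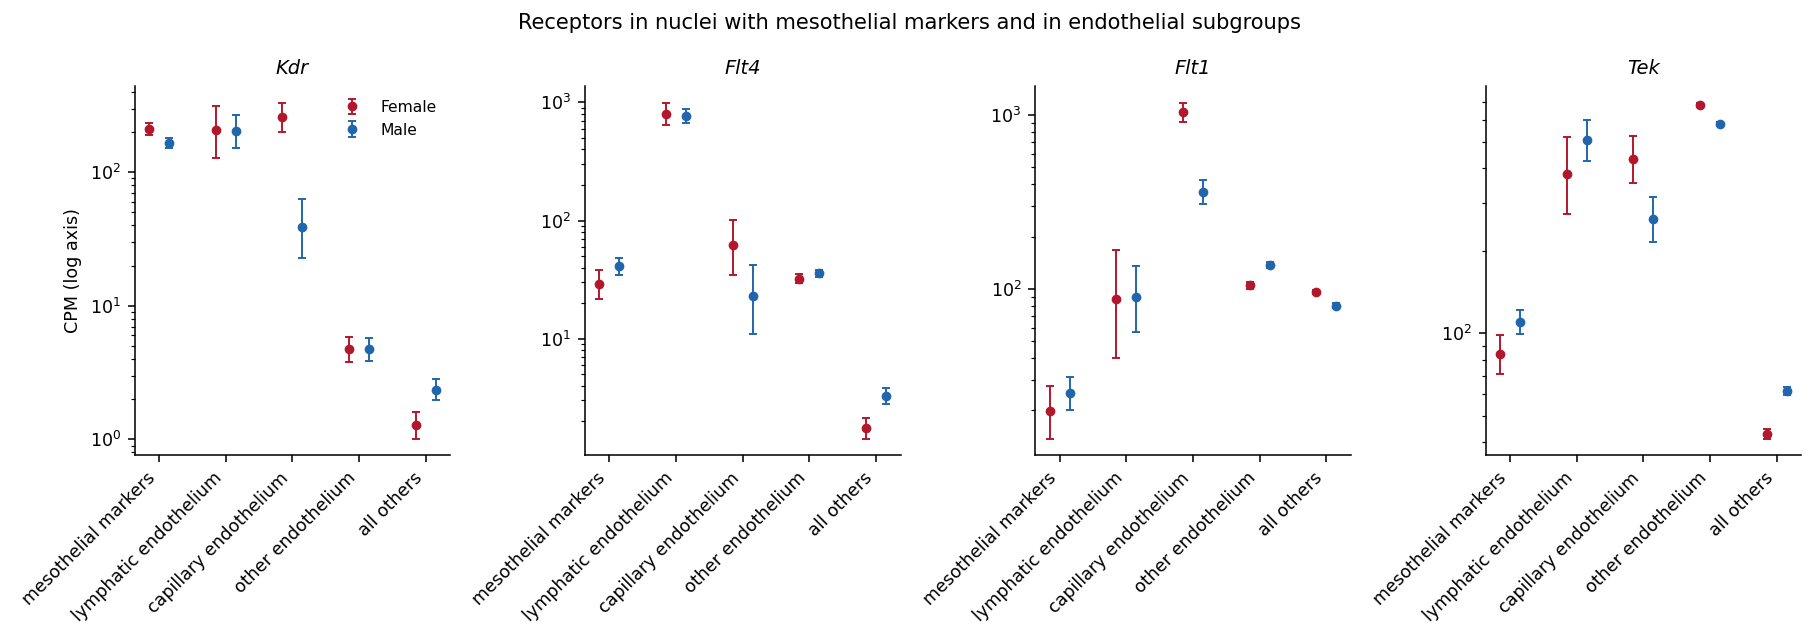
CPM of 4 receptors (log axis, 95% exact Poisson intervals) in nuclei with mesothelial markers, in lymphatic, capillary and other endothelial nuclei, and in all other nuclei, with 1 point per library. Kdr is high in mesothelial-marker and lymphatic nuclei and low in the other endothelium, and in capillary nuclei it is at 259 (Female) and 39.1 CPM (Male). Flt4 peaks in lymphatic nuclei, Flt1 in capillary nuclei, and Tek in the other endothelium.

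Flt1, the high-affinity receptor for Vegfa and Pgf, was as high in muscle as in endothelium. Muscle held 144 CPM in the Female and 128 CPM in the Male library and endothelium 117 and 138, so the classes overlapped and changed places between libraries. Fibroblasts held 25.1 and 26.7, macrophages 13.5 and 11.4 and fat 3.96 and 5.40. Both contrasts passed the test, at 2.84 in muscle (SE 0.10, adjusted p = 5.8e-09) and 2.61 in endothelium (SE 0.10, adjusted p = 2.2e-08). In muscle, Flt1 was at 123% and 92.5% of its endothelial CPM, while Vwf and Tie1, which were not used for grouping, lay between 2.80% and 4.98%. Muscle nuclei with no UMI of 6 endothelial genes (Pecam1, Cdh5, Ptprb, Vwf, Tie1 and Emcn) held 146 and 129 CPM. A Flt1 UMI was found in 30.5% and 24.4% of muscle nuclei (median 3846 and 3012 UMIs) and in 2.17% and 2.48% of fat nuclei (6877 and 6976 UMIs), and after thinning in 11.3% and 10.7% against 0.14% and 0.61%.

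Flt1 was not even within these classes. Pdzrn4-Sphkap muscle nuclei held 151 and 159 CPM and Ptprz1-Actn2 nuclei 153 and 123. Lrrtm3-Adamtsl1 nuclei held 54.4 and 55.3, below the others in each library. In endothelium, all capillary nuclei held 1042 and 341 CPM. Those without a fat-marker UMI held 2883 and 2092 CPM, on 168 and 128 UMIs, at median depths of 2185 and 2058.5 UMIs. Those with such a UMI held 460 and 72.6 CPM, at median depths of 5480 and 12456 UMIs. Nuclei with the pericyte markers Kcnj8, Abcc9 and Higd1b that fell in none of the 5 classes, 173 and 141 in number, held Flt1 at 116 and 91.0 CPM, Angpt2 at 91.3 and 74.1 and Vegfc at 98.1 and 121. They also held Angpt1 at 148 and 104 CPM, and Pgf at 22.8 and 26.9 CPM on 10 and 8 UMIs in 3 and 6 nuclei.

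Flt4, the receptor for Vegfc, was endothelial. It stood at 36.6 CPM in the Female and 44.1 CPM in the Male endothelium, against 1.92 and 5.04 in fibroblasts, 1.35 and 2.76 in muscle, 1.35 and 1.76 in macrophages and 0.54 and 1.14 in fat, a log2 contrast of 4.6 (SE 0.18, adjusted p = 2.9e-08). Lymphatic nuclei held 802 CPM (interval 638 to 996) and 769 CPM (665 to 884). Being few, they carried 9.84% and 14.7% of all Flt4 UMIs, and the endothelium outside the lymphatic and capillary subgroups carried 69.9% and 61.6% at 32.2 and 35.8 CPM. Mesothelial-marker nuclei held 28.8 and 40.9 CPM. Without them the fibroblast contrast of Flt4 went from 0.07 (adjusted p = 0.87) to -1.62 (adjusted p = 0.0051).

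Tek, the angiopoietin receptor also called Tie2, was highest in endothelium and second in fibroblasts. Endothelium held 674 CPM in the Female and 565 CPM in the Male library, and fibroblasts 181 and 208, each well apart from macrophages at 47.1 and 18.4, muscle at 18.3 and 27.7 and fat at 5.04 and 12.1. The endothelial contrast was 4.27 (SE 0.23, adjusted p = 2.3e-07) and the fibroblast contrast 2.11 (SE 0.25, adjusted p = 6.5e-05). In fibroblasts Tek was at 26.9% and 36.8% of its endothelial CPM, where Vwf and Tie1 were between 1.70% and 2.60%. Fibroblast nuclei with no UMI of the 6 endothelial genes held 192 and 226 CPM. In muscle, Tek was at 2.71% and 4.91% of its endothelial CPM, beside 2.80% and 4.91% for Tie1. A Tek UMI was found in 26.0% and 30.9% of fibroblast nuclei (median 3607 and 3647.5 UMIs) and 3.05% and 5.48% of fat nuclei (6877 and 6976 UMIs), and after thinning in 12.2% and 14.3% against 0.41% and 1.14%.

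The fibroblast signal of Tek was concentrated in one subgroup. Pi16-Dact2 nuclei, 873 and 935 in number, held 368 and 431 CPM, against 55.6 and 86.2 in C7-Plcxd3 nuclei and 31.3 and 40.0 in Pex5l-Lsamp nuclei. The same Pi16-Dact2 nuclei held the most Vegfa, at 150.1 and 159 CPM against 94.1 and 85.5 and 60.6 and 58.2, and the least Angpt2, at 11.5 and 2.37 against 55.6 and 18.2 and 57.5 and 43.7. The named subgroups did not overlap across libraries for Tek and Vegfa. Many endothelial nuclei were in no subgroup. Among the larger named endothelial subgroups, Tek stood at 979 and 812 CPM in Ankrd33b-Fgfr3 nuclei, 639 and 529 in Chrm3-Cyp4b1 nuclei and 416 and 370 in Nrg1-Thbs1 nuclei. Flt1 had the same order, at 193 and 243, 103 and 119, and 65.5 and 81.4. Angpt2 had the reverse order, at 6.70 and 3.19, 12.7 and 10.8, and 24.8 and 19.7. In the small lymphatic subgroup, without mesothelial-marker nuclei, Angpt2 was at 58.7 and 97.5 CPM on 6 and 25 UMIs. Both kinds of subgroup are descriptions with no test, and the fibroblast and muscle subgroups were defined after values had been seen.

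**Figure D3:**
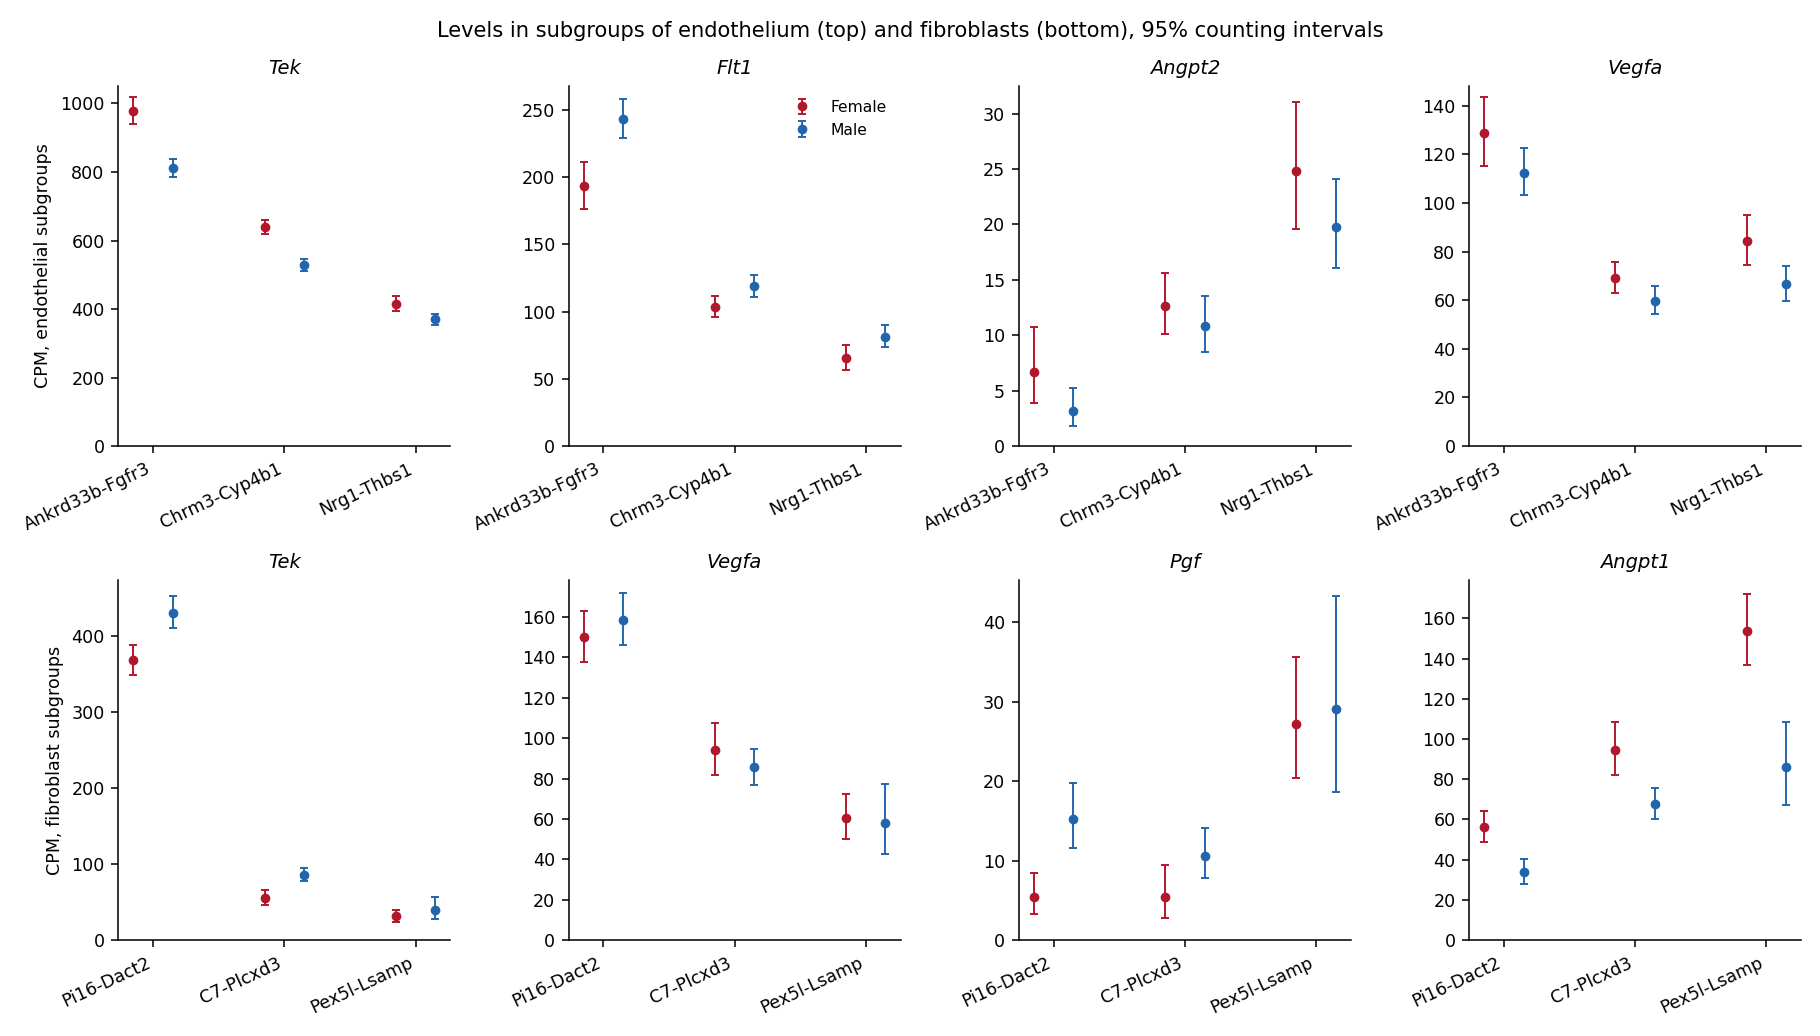
CPM (linear axes from 0, 95% exact Poisson intervals, 1 point per library) in 3 endothelial subgroups for Tek, Flt1, Angpt2 and Vegfa (top) and in 3 fibroblast subgroups for Tek, Vegfa, Pgf and Angpt1 (bottom). Tek falls from left to right in both rows, and Angpt2 rises across the endothelial subgroups.

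Tie1, the companion receptor of Tek, had the largest endothelial contrast of the 10 genes, at 5.19 on the log2 scale (SE 0.13, adjusted p = 7.3e-09). It stood at 386 CPM in the Female and 378 CPM in the Male endothelium, 18.2 and 18.4 in macrophages, 10.8 and 18.5 in muscle, 6.54 and 9.0 in fibroblasts and 5.13 and 8.62 in fat. Endothelium held 91.9% and 91.8% of all Tie1 UMIs. Levels across the subgroups were closer than those of Tek, at 437 and 430 CPM in Ankrd33b-Fgfr3, 346 and 336 in Chrm3-Cyp4b1 and 358 and 366 in Nrg1-Thbs1 nuclei. In fibroblasts the contrast was -1.92 (SE 0.20, adjusted p = 2.8e-05), opposite in sign to that of Tek.

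Further genes of the pathway were taken from 4 lists. Of 8 other ligands, co-receptors and processing genes, 5 were higher and 1 lower in fibroblasts, with a median log2 contrast of 2.39 beside -0.02 for all genes. They were led by Ccbe1 at 4.87 (SE 0.10, adjusted p = 3.2e-09), which helps to process Vegfc, Angpt4 at 4.08, a further angiopoietin, Svep1 at 3.11, an extracellular protein needed for lymphatic vessels, and Vegfd at 2.91, a further ligand of Flt4. In endothelium 3 were higher and 5 lower (median -1.20, all genes -0.02), in fat 5 higher and 2 lower (0.66, all genes -0.05), in muscle 1 higher and 6 lower (-1.21, all genes -0.02) and in macrophages 2 higher and 4 lower (-1.66, all genes -0.22). These counts and those of the next lists stand beside the shares of all genes called higher and lower, which were 24.4% and 21.5% in endothelium, 24.1% and 19.7% in fibroblasts, 32.7% and 33.3% in fat, 24.4% and 23% in muscle and 19.3% and 22.4% in macrophages. The co-receptor Nrp2 was higher in macrophages at 3.03 and in fat at 2.67, and Nrp1 was lower in muscle at -2.67.

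Of 13 genes of signalling below the receptors, 12 were tested, and 6 were higher and 3 lower in endothelium, led by Nos3 at 4.68, the endothelial nitric oxide synthase, and Ptprj at 3.36, a phosphatase that acts on Kdr. Macrophages had 5 higher and 4 lower, led by Prkcb at 5.54 and the adaptor Dok2 at 4.86. Fibroblasts had 4 and 6, fat 4 and 7, and muscle 0 and 8. The medians were 0.32 in endothelium, -0.19 in macrophages, -0.29 in fibroblasts, -0.39 in fat and -0.48 in muscle, and the share higher in fat was near that of all genes. Of 5 genes that VEGF induces in endothelial cells, 3 were tested, and in endothelium Dll4, a Notch ligand, was higher at 4.68 (adjusted p = 9.5e-07), Egr3 was higher at 1.45 and Rcan1 lower at -0.37. Of 8 genes of oxygen sensing and Vegfa induction, 5 were higher and 0 lower in fat, led by the coactivator Ppargc1a at 4.4, Esrra at 2.53, and the oxygen sensors Egln3 at 2.05 and Egln1 at 1.59. Epas1, the hypoxia-inducible factor of endothelium, was higher in endothelium at 3.20, where 1 was higher and 3 lower in all.

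Likeness over 20 points was the Pearson correlation of log2 CPM with the levels of 11521 other genes across sums of nuclei in the 2 libraries. The sums were of muscle, fibroblasts, macrophages, brown fat, white fat and the 5 endothelial subgroups. There was no separate sum for nuclei with mesothelial or pericyte markers. The points share libraries and depth, so the values are descriptions. Tie1 was most like Egfl7 (r = 0.998), Cdh5 (0.994) and Mmrn2 (0.992), and Tek most like Hspa12b (0.995), Fgd5 (0.988) and Afap1l2 (0.985). Cdh5 was a marker used to define the endothelial class, so its value was partly set by the grouping. Flt4 was most like Klhl4 (0.970), Kdr most like Ablim3 (0.934) and Flt1 most like Ccdc85b (0.927). Among the ligands, Vegfa was most like Tmem135 (0.965), Vegfc most like Dchs1 (0.966), Pgf most like Igfbp6 (0.925) and Angpt1 most like Fign (0.948). Angpt2 had the lowest highest value, with Rspo3 at 0.888.

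The lineage reporter compared nuclei with GFP UMIs alone against nuclei with tdTomato UMIs alone, within muscle and within fibroblasts, as 4 sums with the library as a block. Muscle held 2420 Female and 2197 Male GFP nuclei and 1734 and 1431 tdTomato nuclei, and fibroblasts 418 and 451, and 285 and 323. In muscle 2 of the 10 genes passed, beside 2.51% of all genes in either direction, and both were lower with GFP. Tek was at 10.2 (Female) and 18.5 (Male) CPM with GFP and 23.7 and 38.6 with tdTomato, a log2 difference of -1.13 (SE 0.12, edgeR adjusted p = 0.002). Tie1 was at 5.88 and 13.8 against 15.04 and 24.8, a difference of -1.07 (SE 0.17, adjusted p = 0.015). Pecam1 was at 176 and 362 CPM with GFP and 210.4 and 378 with tdTomato. In the endothelial class, 268 Female and 406 Male nuclei held GFP alone, and 2202 and 2794 held tdTomato alone. A further 539 and 569 muscle nuclei, and 60 and 72 fibroblasts, held both reporters and were in neither group. The rest of the 8133 and 7661 muscle nuclei and of the 2185 and 2492 fibroblasts had no UMI of either reporter and were left out too. The part of endothelial RNA in the Tek and Tie1 differences was not tested. With nuclei called as doublets by Scrublet left out, Tek was at 3.55 and 7.41 against 5.02 and 8.79 (-0.37, adjusted p = 0.67) and Tie1 at 3.84 and 5.36 against 4.38 and 6.11 (-0.20, adjusted p = 0.87). Neither call was made with no replicate block, where the adjusted p was 0.95 for Tek and 0.9995 for Tie1, and Tie1 had an adjusted p of 0.17 with DESeq2. Flt1, the receptor at high level in muscle, was at 143 and 130 CPM with GFP and 148 and 130 with tdTomato, a difference of -0.03 (SE 0.05, adjusted p = 0.88). Angpt2 was at 82.2 and 49.0 CPM with GFP and 99.6 and 55.0 with tdTomato (-0.24, adjusted p = 0.15), and its adjusted p was 0.038 with called doublets left out.

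In fibroblasts 1 of 9 tested genes passed, beside 4.46% of all genes in either direction, with Flt4 below the count filter. Kdr was at 3.73 (Female) and 8.96 (Male) CPM with GFP and 22.8 and 54.6 with tdTomato, a difference of -2.57 (SE 0.33, adjusted p = 4.1e-06). The mesothelial markers moved with it, with Upk3b at 18.1 and 32.4 CPM with GFP and 105 and 224 with tdTomato. Without mesothelial-marker nuclei Kdr had 1 and 3 UMIs with GFP and 0 and 4 with tdTomato and no longer passed the filter. With no replicate block its adjusted p was 0.085. Tek in fibroblasts was at 163 and 183 CPM with GFP and 252 and 194 with tdTomato, with overlapping intervals in the Male library and an adjusted p of 0.36.

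**Figure D4:**
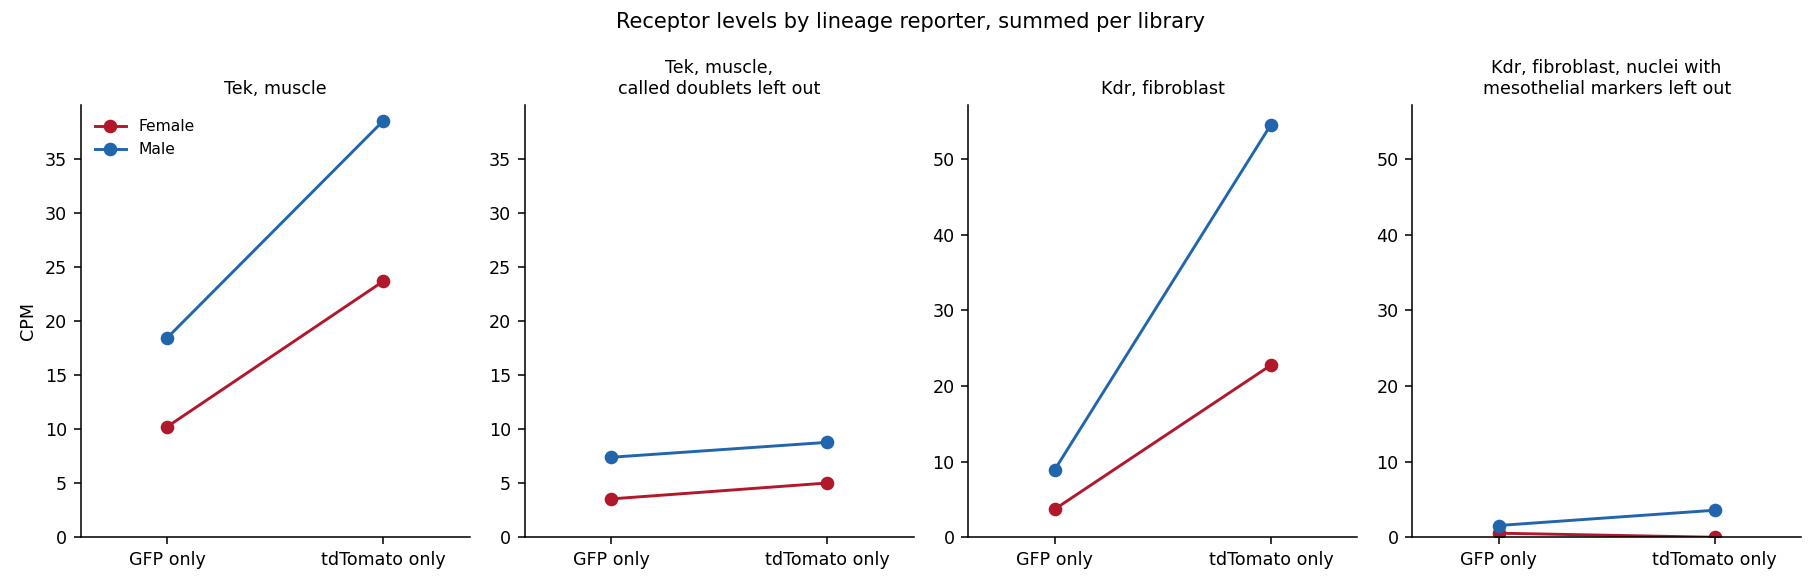
CPM of Tek in muscle and Kdr in fibroblasts for nuclei with GFP alone and tdTomato alone, 1 line per library, with all nuclei and with the named nuclei left out, on linear axes from 0. The gap in Tek narrows from 10.2 against 23.7 to 3.55 against 5.02 CPM in the Female library, and Kdr falls to near 0 in fibroblasts without mesothelial markers.

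Female and Male libraries were compared by ratio of CPM, with no test, since each sex is 1 library. Genes needed 50 UMIs over both libraries and 20 CPM in one. In muscle 0 of 5 members that passed were at least 2-fold apart (0.375% of all genes were), in endothelium 0 of 7 (0.412%), in fibroblasts 1 of 7 (0.918%), in fat 0 of 2 (2.02%) and in macrophages 1 of 2 (1.94%). The 2-fold rule used log2 ratios after adding 5 CPM, and the ratios that follow are plain CPM ratios with intervals for counting error.

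Angpt2 was higher in the Female library in both classes where it passed. The Female over Male ratio was 1.66 in muscle (interval 1.56 to 1.76) and 2.86 in fibroblasts (2.35 to 3.49). The fibroblast log2 ratio after adding 5 CPM was 1.25. The Female library also held more Pex5l-Lsamp fibroblasts, 505 against 215, and fewer C7-Plcxd3 nuclei, 508 against 1026. Within the C7-Plcxd3 subgroup Angpt2 was 55.6 against 18.2 CPM within the Pi16-Dact2 subgroup 11.5 against 2.37, and within the Pex5l-Lsamp subgroup 57.5 against 43.7.

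Vegfa in fat was 1.47-fold higher in the Female library (interval 1.43 to 1.51), at a median log2 ratio of all genes of -0.05, and it was higher within brown and within white nuclei. Of the 8 oxygen-sensing and inducer genes, 7 passed the filter in fat and all 7 had ratios above 1, where 41.1% of all fat genes did, with Epas1 at 1.52 (1.43 to 1.62). In the other classes 5 passed, with 4 above 1 in muscle, 2 in endothelium, 4 in fibroblasts and 2 in macrophages, where between 47.7% and 50.9% of all genes were above 1. Angpt1 was lower in Female fat at 0.77 (0.74 to 0.81) and higher in Female fibroblasts at 1.66 (1.48 to 1.85). Vegfc was higher in the Female library at 1.20 (1.13 to 1.28) in endothelium and 1.31 (1.20 to 1.44) in fibroblasts.

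Among receptors, Tie1 in endothelium was level, at 1.02 (0.99 to 1.05), Tek was 1.19 (1.16 to 1.22), Flt1 0.85 (0.80 to 0.90) and Flt4 0.83 (0.75 to 0.92). Tek in muscle was 0.66 (0.59 to 0.73), and Vwf moved with it, at 26.1 CPM in Female and 44.5 CPM in Male muscle. Some endothelial genes moved with Tek in macrophages. As a share of endothelial CPM, Tek was at 6.99% (Female) and 3.26% (Male), Cdh5 at 6.69% and 3.44%, Ptprb at 5.55% and 3.58%, Vwf at 6.67% and 4.08%, Pecam1 at 4.81% and 4.24% and Tie1 at 4.71% and 4.88%, and their part in the result was not tested. The Tek ratio there was 2.55 (1.72 to 3.84) on 70 and 42 UMIs, and its log2 ratio after adding 5 CPM went from 1.15 to 0.43 with called doublets left out. Pgf in muscle did not reach 20 CPM, but its 54 Female and 189 Male UMIs gave a ratio of 0.22 (0.16 to 0.30).

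**Figure D5:**
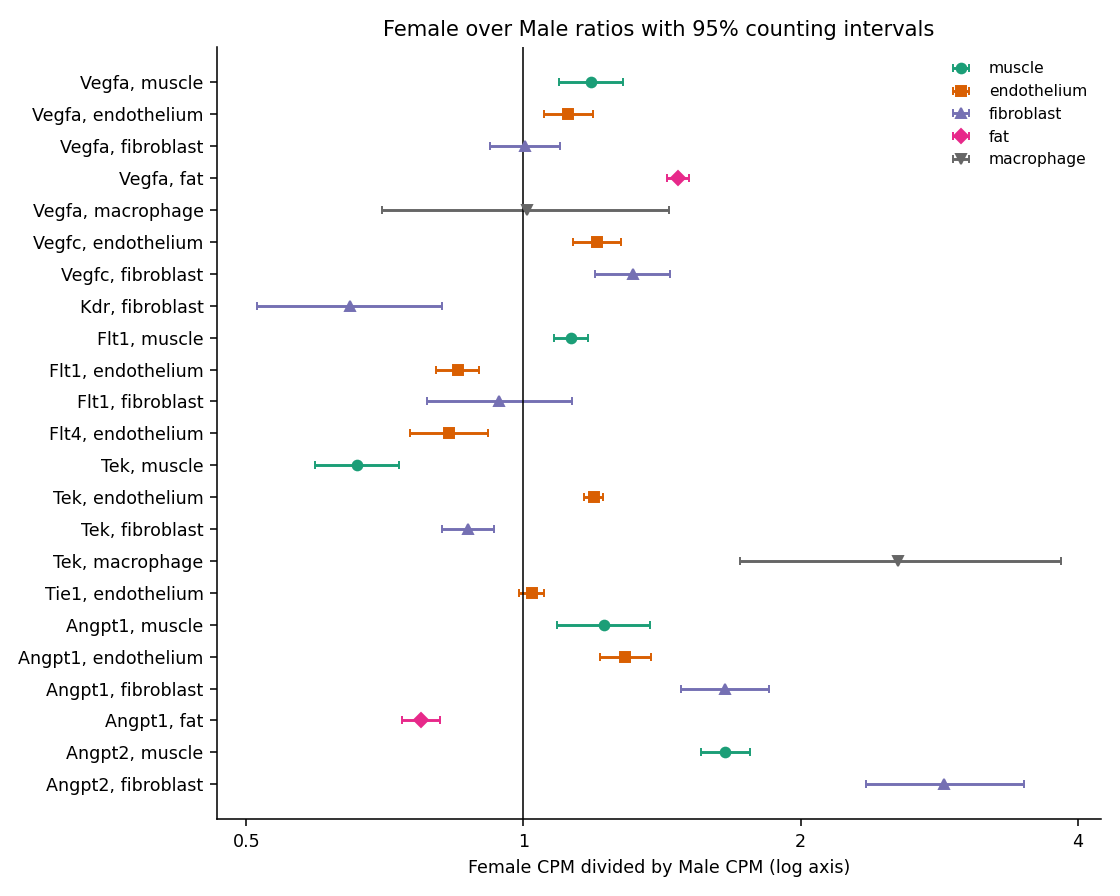
Female over Male CPM ratio (log axis) of each gene and class that passed the filter, with 95% conditional exact intervals for counting error. Angpt2 in fibroblasts lies farthest to the right at 2.86, and Angpt1 lies right of 1 in 3 classes and left of 1 in fat.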

How the data were processed

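Nuclei of the ascending aorta and arch were profiled with the BMKMANU DG1000 droplet kit, per the labels' protocols. The authors deposited raw UMI counts per gene and barcode. Cell Ranger 7.0.0 wrote the matrices, per the file headers, and the submitters' processing notes name GRCm38, STAR, Cell Ranger and Seurat 4.4.0. For annotation, intron use and strand the sources used here give nothing. Barcodes with at least 300 genes were kept and grouped by 15 marker genes. UMIs were summed per class and library and tested with edgeR 4.0.16 (quasi-likelihood, TMM, genes with at least 50 UMIs, library as block, Benjamini-Hochberg at 0.05) in R 4.3.3, and DESeq2 1.42.0 was an alternative. The edgeR step was tested on simulated data. Scrublet, in scanpy 1.11.5 at an expected rate of 0.08, marked 947 Female (5.02%) and 1506 Male (7.29%) nuclei as doublets. These were kept in the values reported and left out in an alternative. Alternatives also changed the scaling, the gene filter, the block, the marker minimum and the pseudocount. Others left out mixed nuclei, or thinned nuclei to 1000 UMIs and left out those with fewer. Mixed nuclei, 780 Female and 1038 Male, had their 2 largest class marker sums within 2-fold of each other. Sex ratios have no test. Intervals are exact, at 95%, and cover counting error only. Library totals were 79294181 UMIs (Female) and 77989549 (Male).

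All 10 genes are named, with up to 4 genes of each of 4 pathway lists by size of change and the genes most like each member. The 10 genes and the lists were chosen with earlier results of these data known. The subgroups of fibroblasts, muscle and unclassed nuclei, the split by mesothelial markers and the check of capillary nuclei for fat markers were added after seeing the data. Likeness used log2 CPM after adding 1 CPM, over genes with at least 500 UMIs. Promoters matched 8 of the 10 genes, leaving Angpt1 and Angpt2.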

Additional observations from a re-analysis of the deposited data

Results flagged for a closer look

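Flt1, Tek and Angpt1 had Female over Male CPM ratios whose counting intervals lay above 1 in some classes and below 1 in others. The differences between classes were not tested, since each sex is 1 library. Flt1 was 1.13 in muscle and 0.85 in endothelium. Tek was 1.19 in endothelium and 2.55 in macrophages, and 0.66 in muscle and 0.87 in fibroblasts. Angpt1 was 1.22 in muscle, 1.29 in endothelium and 1.66 in fibroblasts, and 0.77 in fat.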

How the results depend on the processing

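The total of genes called among the 10 stayed within 1.5 times of that reported in every class contrast and alternative run, but not in each direction. Muscle had 4 higher, against 2, without called doublets, and fibroblasts 2 lower, against 1, with at least 5 marker UMIs, with no gene filter and without mesothelial-marker nuclei, the last gaining Flt4 and Angpt1 and losing Kdr. In the reporter contrast of muscle, 2 members were called, against 1 with DESeq2, 0 with no replicate block and 1 with called doublets left out. That last call was Angpt2, and Tek and Tie1 were no longer called. With at least 5 marker UMIs, with no gene filter and without mixed nuclei, 3 were called. In fibroblasts 1 was called, against 0 with no replicate block and 0 without mesothelial-marker nuclei, an alternative chosen after seeing the data. Over all genes, the 365 calls of the muscle reporter became 97 with DESeq2, 902 with no gene filter, 4 with no replicate block, 655 with at least 5 marker UMIs and 775 without mixed nuclei. The 484 of fibroblasts became 127, 58 with no replicate block and 72 without mesothelial-marker nuclei. For the sexes, 1 fibroblast gene became 0 with 20 CPM added, and 1 macrophage gene became 0 with 20 CPM added, without mixed nuclei, without called doublets and after thinning. With 20 CPM added, the genes at least 2-fold apart fell from 27 to 13 in muscle, 31 to 13 in endothelium, 71 to 27 in fibroblasts, 153 to 59 in fat and 151 to 64 in macrophages (62 after thinning).

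None of the log2 values that changed sign had passed the test as reported. Vegfc in muscle was -0.071 with library totals. Vegfa in endothelium was 0.38 without called doublets (adjusted p = 0.039) and 0.067 thinned, and Pgf there 0.093 thinned. Vegfa in fibroblasts was 0.094 without mixed nuclei, 0.54 without called doublets (adjusted p = 0.0071), 0.026 without mesothelial-marker nuclei and 0.22 thinned. Flt4 in fibroblasts was -0.18 with at least 5 marker UMIs, -1.62 without mesothelial-marker nuclei and -0.59 thinned. In the muscle reporter contrast, Vegfa was -0.18 without called doublets, and Pgf was 0.054 with DESeq2, 0.016 with at least 5 marker UMIs and 0.032 without mesothelial-marker nuclei. Vegfc in the fibroblast reporter contrast was 0.015 without called doublets. The cause of these changes was not tested. No paired analysis was possible for the sex ratios because each sex is 1 library, and leaving out a library leaves no spread to test. Macrophages are limited by depth, at 1486970 and 2277470 UMIs.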
